A study of Mus musculus with 18 samples.

Results

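Spermatocytes in mid-late pachytene from C57BL/10J males were compared with pre-mid-pachytene spermatocytes of the same strain, gene by gene, to describe what changes as normal male meiosis passes through pachytene. Each stage was measured on 2 arrays, 4 of the 18 arrays of the series. A gene was tested where its log2 value reached 4 on at least 2 of these 4 arrays, which kept 9308 of the 15780 named genes of the array. Of these, 9010 lie on autosomes, 279 on the X and 4 on the Y.

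Both stages came from C57BL/10J males aged 2 months with no translocation, by fluorescence-activated sorting of single cells prepared from testis tubules, and the labels do not say whether cells of several males were pooled. Pre-mid-pachytene arrays of Ttf+/+T43H males (3) and t12+/+T43 males (3), both on the C57BL/10J background and also aged 2 months, entered the fit to estimate the spread between replicates. They are not described. Whole testes of C57BL/6J males aged 15 days (2 arrays), an age at which no spermatids have formed, give levels to set beside those of the sorted cells. The labels number the replicates without saying that they came from different males, so p-values measure the spread between these arrays.

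Pachytene is the long stage of meiotic prophase in which paired homologues complete recombination. In the male the unpaired parts of the X and Y are silenced in it, while autosomes begin to transcribe many genes whose products are used only later, in the meiotic divisions, the spermatid and the sperm tail. Early prophase cells still carry transcripts of meiotic entry, chromosome pairing and strand exchange. Autosomal genes of other cell functions are described here beside these known stage markers.

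Values are the authors' log2 GCRMA values, a scale on which 1 unit is a doubling of signal. Differences are mid-late minus pre-mid, given with limma's moderated standard error (SE), and a gene is said to have risen or fallen where its p, adjusted over all 9308 genes, was under 0.05. Precision rests on the number of arrays, since arrays carry no read depth. Among the 6472 named genes that did not reach the filter, medians were 2.50 and 2.53 on the mid-late arrays, against 2.27 and 2.29 on the pre-mid arrays. A value under 4 therefore stands near the level of genes with no measurable signal, and a difference that starts or ends there depends on how background was removed.

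The labels were checked against stage markers. The mean of 19 mid-late pachytene markers was 12.5 and 12.7 on the mid-late arrays, against 11.0 and 10.9 on the pre-mid arrays. The mean of 21 leptotene and zygotene markers was 8.86 and 8.83 on the mid-late arrays, against 11.5 on each pre-mid array. Both differences run the way the labels say. Of the 19 tested mid-late markers 6 rose (31.6%) and 0 fell, where 28.3% of all autosomal genes rose. In this fit the count is near the background. Of 20 tested autosomal leptotene and zygotene markers 1 rose and 13 fell (65.0%), where 30.2% of all autosomal genes fell. These counts depend on the arrays in the fit. With the 4 C57BL/10J arrays alone, 14 of the 19 mid-late markers rose and 3 fell. Of the 20 earlier markers 2 rose and 16 fell there. That fit called 3251 of 9010 autosomal genes higher and 3496 lower.

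Markers of other cells also differed between the sorts. The mean of 18 Sertoli cell markers was 3.73 and 3.93 on the mid-late arrays, against 5.95 and 6.00 on the pre-mid arrays and 9.39 in the 15-day testes, and 8 of 9 tested autosomal members fell, among them Clu by 5.24 and Ctsl by 7.06 on the log2 scale. Of these 18 markers, 7, including Amh, Fshr and Gata4, stayed under 4 on all 4 arrays. The mean of 15 spermatogonial markers was 4.28 and 4.32 on the mid-late arrays, against 7.03 and 7.48 on the pre-mid arrays. Of these 15 markers, 3 were under 4 on all 4 arrays. Among 10 tested autosomal members 6 fell and 1, Dmrtb1, rose by 3.35. Of the 6 falls, 5 reached the filter through the pre-mid arrays alone and had to be lower in mid-late cells. The mean of 31 spermatid markers was 8.91 and 8.23 on the mid-late arrays, against 10.5 and 9.88 on the pre-mid arrays. Of 30 tested autosomal members 10 fell (33.3%) and 1 rose, a count of falls near the background in the reported fit. In the fit of the 4 C57BL/10J arrays alone 19 fell and 2 rose, where 3496 of 9010 autosomal genes fell. The protamine gene Prm2 had 8.93 and 8.48 on the mid-late arrays, against 12.80 and 12.18 on the pre-mid arrays, and 2.26 in the 15-day testes. The mean of 16 peritubular and endothelial markers was 3.59 and 3.56 on the mid-late arrays, against 4.50 and 3.97 on the pre-mid arrays, and 4 of 6 tested members fell (66.7%). Among these Acta2, the actin of smooth muscle, had 6.86 and 6.65 on the mid-late arrays, against 11.27 and 9.61 on the pre-mid arrays, while 9 of the 16 were under 4 on all 4 arrays. The mean levels of spermatogonial, spermatid, Sertoli and peritubular markers were thus lower on both mid-late arrays than on either pre-mid array. Leydig cell markers averaged under 6 on all 4 arrays, and 7 of 8 macrophage markers were under 4 throughout. The part of these cells in the falls described below was not tested, and in RNA from bulk samples fewer cells of a type and less RNA per cell cannot be told apart.

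The arrays of a stage resembled each other, with a Pearson correlation across tested genes of 0.987 for the mid-late pair and 0.992 for the pre-mid pair. The gap between the 3′ and 5′ control probe sets of beta actin, which widens as RNA shortens, was 3.51 and 3.38 on the mid-late arrays, against 2.49 and 2.51 on the pre-mid arrays. The same gap for Gapdh was 2.51 and 3.39 on the mid-late arrays, against 2.86 and 2.93 on the pre-mid arrays, so the groups overlapped there. In the 15-day testes the gaps were 1.21 and 1.11 for actin and -0.08 and -0.12 for Gapdh, far below those of every sorted array of this comparison, so levels of whole testes are set beside sorted cells as a description. The part of these differences in the results was not tested.

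The stages differed across most of the measured transcriptome. Of 9308 tested genes, 5510 (59.2%) passed the test, 2563 (27.5%) with a rise and 2947 (31.7%) with a fall. On the autosomes 2553 of 9010 genes rose (28.3%) and 2718 fell (30.2%), with a median difference of -0.06. These shares are the background against which every count of autosomal members below is to be read. On the X 225 of 279 genes passed (80.6%), of which 5 rose (1.79%) and 220 fell (78.9%), with a median of -3.90, and all 4 Y-linked genes tested fell. Changes were large: 1465 autosomal genes rose and 1699 fell by at least 2 on the log2 scale, and 467 rose and 549 fell by at least 4. Without any 1 of the 4 arrays, 1896 of the autosomal rises and 1960 of the autosomal falls remained.

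**Figure D1:**
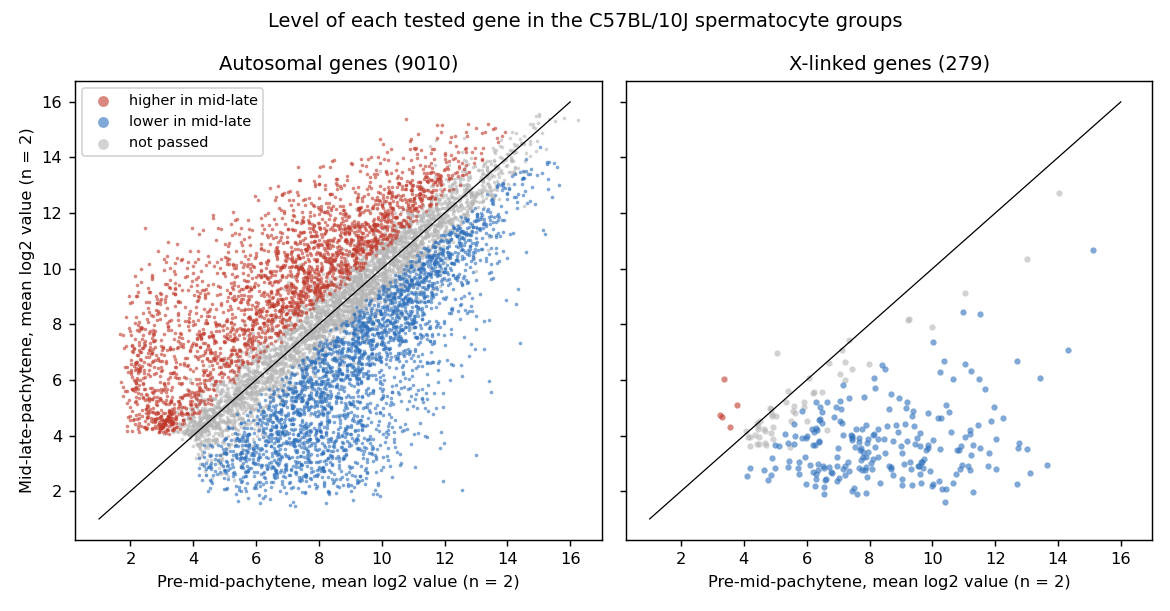
Mean log2 value of each tested gene in mid-late-pachytene cells (vertical axis, n = 2) against pre-mid-pachytene cells (horizontal axis, n = 2), for 9010 autosomal and 279 X-linked genes; the line marks equal levels, and colours mark genes that rose, fell or did not pass the test. Autosomal genes spread to both sides of the line, with 2553 rises and 2718 falls, while 220 X-linked genes lie below it.

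Autosomes differed little from each other beside the X. The share of tested genes that rose lay between 23.5% on chromosomes 2 and 3 and 32.7% on chromosome 17, and the share that fell between 25.6% on chromosome 11 and 36.7% on chromosome 2. Chromosome medians ran from -0.33 on chromosomes 2 and 3 to 0.10 on chromosomes 7, 11 and 17. Every autosome thus held both rises and falls.

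Some genes went between no measurable signal and a strong one. Among autosomal genes, 89 were at 8 or more on both mid-late arrays and under 4 on both pre-mid arrays, and 156 showed the reverse. On the X 0 genes were switched on in this sense and 58 were switched off. The largest rise was that of Slc25a54, a member of the mitochondrial carrier family on chromosome 3, which had 11.43 and 11.53 on the mid-late arrays, against 2.80 and 2.13 on the pre-mid arrays (log2 difference 9.02 ± 0.35 SE, adjusted p = 3.4e-07). In the 15-day testes it averaged 1.97. It was thus at the level of genes with no measurable signal everywhere except on the mid-late arrays.

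Several further genes of this kind encode membrane and secretory proteins. Pkdrej, a polycystin family protein of the sperm membrane, had 9.81 and 9.65 on the mid-late arrays, against 2.10 and 2.18 on the pre-mid arrays. Agtr1a, a receptor for angiotensin II, had 10.27 and 10.46 on the mid-late arrays, against 2.91 and 3.25 on the pre-mid arrays. Abca14, an ATP-binding cassette transporter, had 10.82 and 10.99 on the mid-late arrays, against 3.54 and 3.41 on the pre-mid arrays. All 3 were under 3 in the 15-day testes, at 2.20 for Pkdrej, 2.88 for Agtr1a and 2.57 for Abca14. The cargo receptor gene Tmed6 rose by 7.32, the cytochrome P450 gene Cyp2d26 by 7.67, Tmem202 by 7.52 and Itprip, whose product binds inositol trisphosphate receptors, by 7.12. The hyaluronidase gene Hyal6 also rose by 7.32, but it had 4.90 and 4.34 on the pre-mid arrays and was not switched on in this sense. Egflam, a matrix protein known from photoreceptor synapses, rose by 7.77 ± 0.26, and it differed from the others in being measured in the 15-day testes, at 8.14.

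The largest falls joined known genes of meiotic entry and strand exchange with genes of wide use. Prss50, a testis serine protease family member, had 2.04 and 2.07 on the mid-late arrays, against 12.60 and 12.52 on the pre-mid arrays (log2 difference -10.51 ± 0.38 SE, adjusted p = 2.6e-07). Sohlh2, a transcription factor of spermatogonial differentiation, fell by 9.59, the strand exchange recombinase Dmc1 by 8.30 and Stra8, which is required for meiotic entry, by 7.75. These are stage markers that were low or absent on both mid-late arrays. Outside such markers, Ppp1ca, a catalytic subunit of protein phosphatase 1, had 3.88 and 3.55 on the mid-late arrays, against 11.93 and 12.06 on the pre-mid arrays. Txn1, the cytosolic thioredoxin, had 1.89 and 1.92 on the mid-late arrays, against 9.75 and 9.68 on the pre-mid arrays, and Cenpa, the centromeric histone H3 variant, had 2.45 and 2.58, against 10.08 and 10.55 on the pre-mid arrays. All 3 were at 10 or more in the 15-day testes, which hold Sertoli cells and spermatogonia. Further large falls were those of Marcksl1 (-9.69), an actin-binding kinase substrate, Atad5 (-8.20), which unloads the replication clamp, Pygo1 (-7.95), a Wnt pathway cofactor, the class I histocompatibility gene H2-D1 (-7.90), Ddb2 (-7.66), which recognises ultraviolet damage, and Agps (-7.63), an enzyme of ether lipid synthesis.

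On the X the largest falls were those of the homeobox gene Rhox13 (-10.71), Fmr1nb (-10.45), the transketolase-like gene Tktl1 (-10.42), Ssr4 (-9.33), a subunit of the translocon-associated complex, and the kinase gene Rps6ka6 (-9.24). Among the 5 X-linked genes that rose, Fam47c had 6.41 and 5.66 on the mid-late arrays, against 3.56 and 3.16 on the pre-mid arrays. Rai2 rose by 1.49 and Nudt10 by 1.34, to levels no higher than 5.12. The remaining 2, 5730416F02Rik and 4931400O07Rik, which were named after their values were seen, reached at most 4.62 and 5.08 on the mid-late arrays. All 5 stood under 7 on both mid-late arrays, below the levels of the large autosomal rises given above.

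Genes were then grouped by function into 63 lists of autosomal genes, of which 8 hold cell and stage markers and 55 hold other functions. Beside most counts the range in brackets gives the count when each of the 4 arrays was left out in turn. Such fits call fewer autosomal genes altogether, so these ranges are not to be set against the shares of the full fit. Those shares over all autosomal genes, 28.3% higher and 30.2% lower, belong beside the first count given. On all autosomes, 548 of the 2553 rises reached the filter through the mid-late arrays alone. The pre-mid arrays alone did so for 552 of the 2718 falls.

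**Figure D2:**
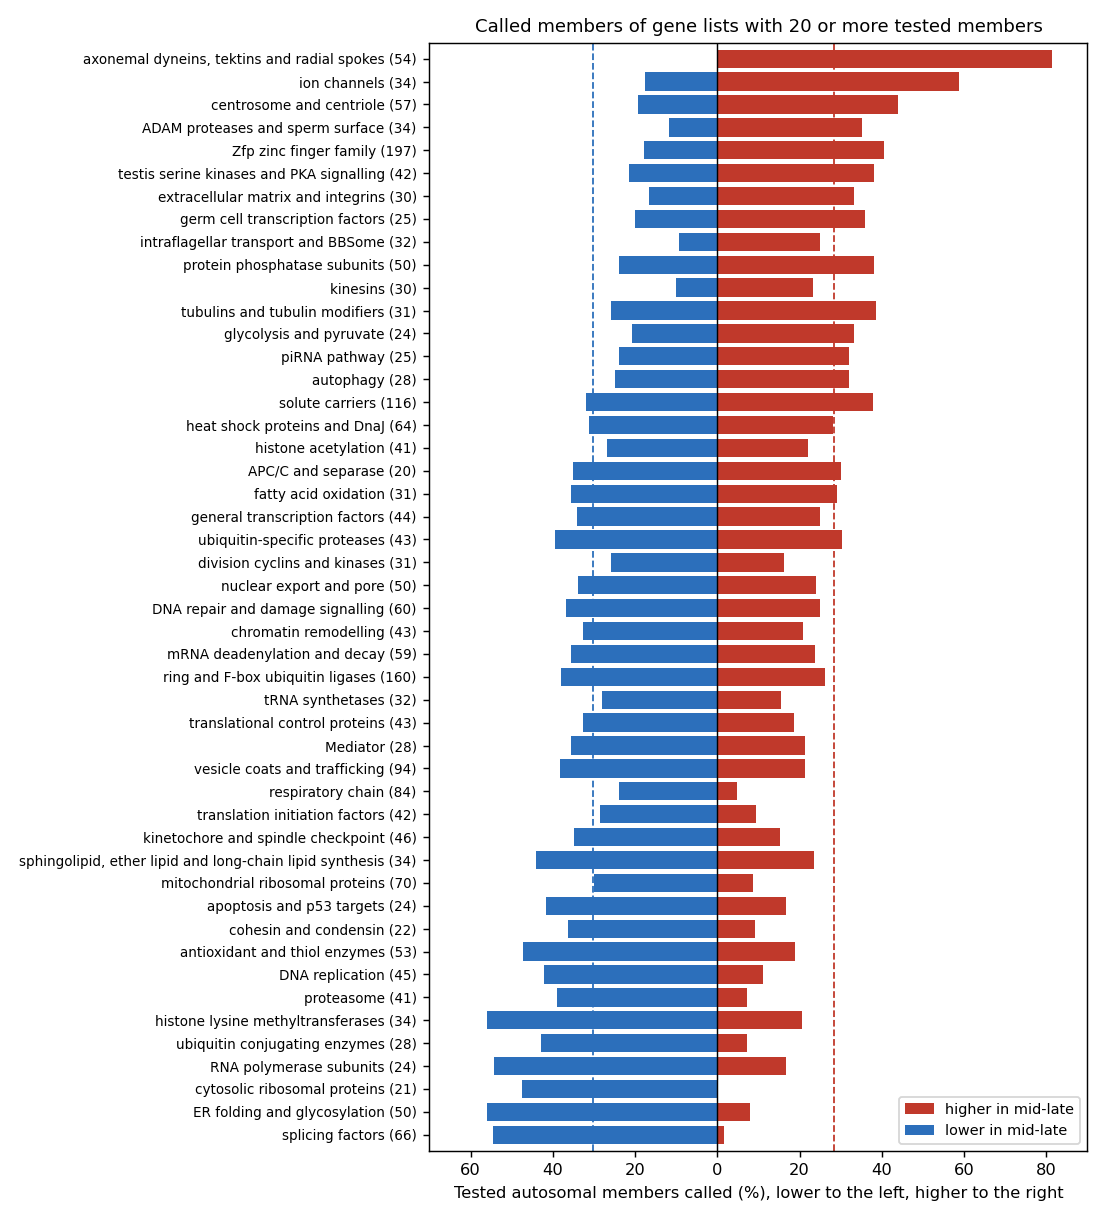
Share of tested autosomal members that were higher (red, right) or lower (blue, left) in mid-late-pachytene cells, for the function lists with 20 or more tested members (number in brackets); dashed lines mark the shares over all autosomal genes, 28.3% higher and 30.2% lower. The axonemal list is at one end with 81.5% higher and 0 lower, and splicing factors are at the other with 1.52% higher and 54.5% lower.

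Genes of the sperm tail's motor rose together, with the largest share of rises of any list in the plot. The axoneme is the microtubule core of cilia and flagella, moved by dynein arms and braced by radial spokes and tektins, and sperm tails are built only after meiosis. Of 60 axonemal genes on the array 54 were tested, and 44 of them (81.5%) rose and 0 fell (39 to 41 rises without 1 array), with a median difference of 3.60. Their median level was 11.73 and 11.75 on the mid-late arrays, against 8.15 and 7.78 on the pre-mid arrays and 5.67 in the 15-day testes. For 51 of the 54, both mid-late arrays lay above both pre-mid arrays, which held for 43.6% of all autosomal genes tested. The mean of spermatid markers ran the other way, as given above. Of 30 tested, 10 fell, 19 did not pass and 1, Catsper2, rose by 2.71. The part of spermatids in the axonemal levels was not tested.

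The 3 largest rises of this list were those of dynein genes, while other dynein genes stood lower in it or did not pass. Dnaic2, an intermediate chain of the outer arm, had 10.96 and 10.95 on the mid-late arrays, against 3.44 and 2.97 on the pre-mid arrays (7.75 ± 0.44). Dnah6, a heavy chain, had 12.12 and 11.52 on the mid-late arrays, against 5.26 and 4.01 on the pre-mid arrays (7.18 ± 0.67). Hydin, a protein of the central pair apparatus, had 10.89 and 10.30 on the mid-late arrays, against 5.28 and 4.93 on the pre-mid arrays (5.49 ± 0.43). The groups were far apart in each case. Cfap161 rose by 5.75, Cfap157 by 4.97 and Spag1, a dynein assembly factor, by 3.98. Dnaaf1, another assembly factor, had 13.71 and 13.86 on the mid-late arrays, against 10.09 and 9.77 on the pre-mid arrays. Members that did not pass included Rsph1, a radial spoke head protein with 15.00 and 15.45 on the mid-late arrays, against 14.77 and 15.17 on the pre-mid arrays. Ropn1, a sheath protein, and Cfap97d1 had lower means in mid-late cells and did not pass either, with differences of -1.58 ± 0.93 and -1.60 ± 0.73. Hydin, Dnaaf1 and Rsph1 were chosen after their values were seen.

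**Figure D3:**
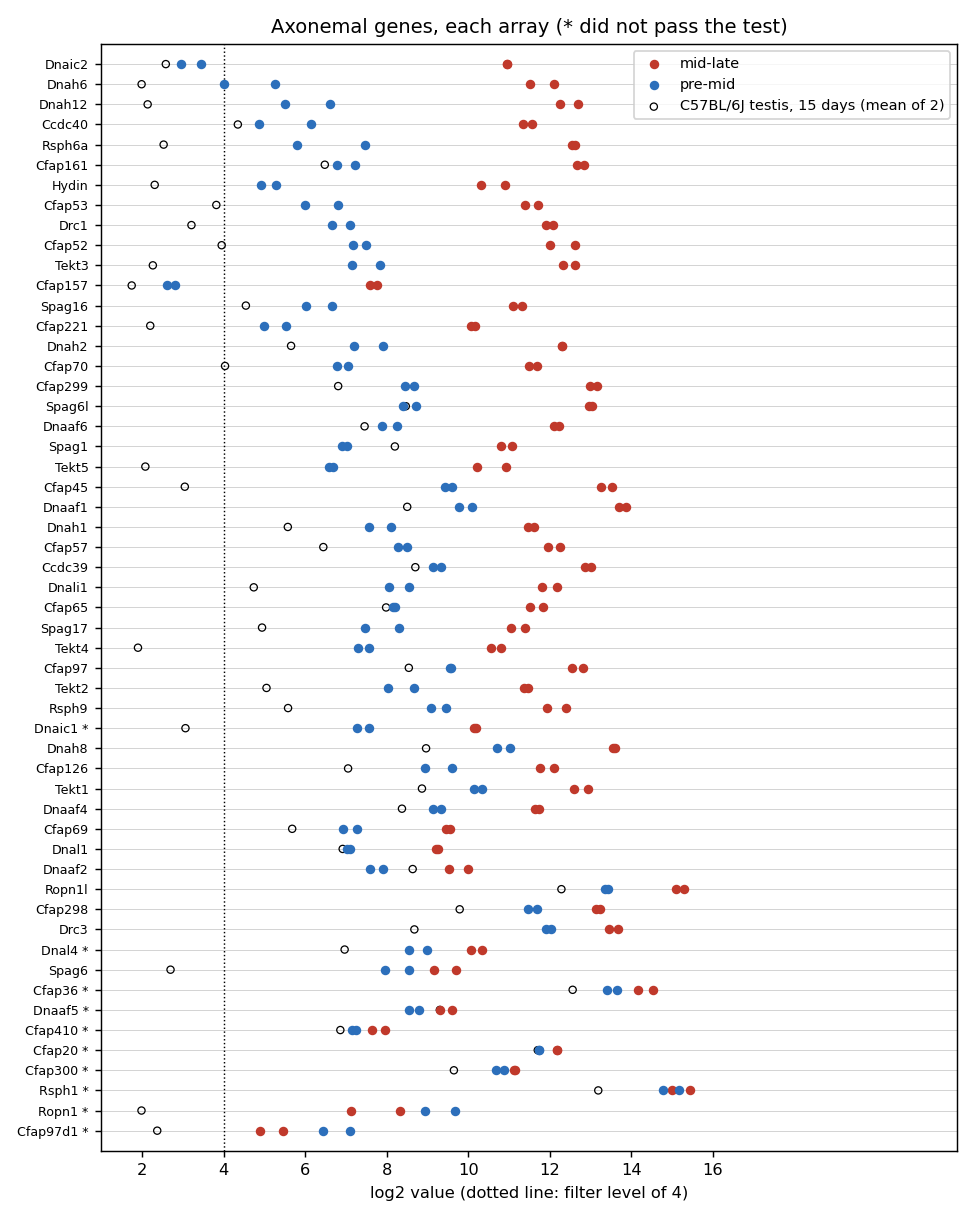
log2 value of each tested axonemal gene on each array (horizontal axis), with mid-late arrays in red, pre-mid arrays in blue and the mean of the 15-day C57BL/6J testes as open circles; genes run from the largest rise at the top. Red points lie to the right of blue ones for 51 of 54 genes, and the 10 genes with a star did not pass the test.

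The promoters of axonemal genes were read because RFX transcription factors are known to bind an X-box sequence before many ciliary genes. Promoter windows of 300 bases, from 250 before to 50 after the start listed first for each gene, were taken from RefSeq (GRCm38.p6) and were found for 7435 of 9010 autosomal genes. The letters GTTGCC, which form part of the X box, were present on either strand in 18 of 46 axonemal promoters (39.1%), against 1040 of 7435 (14.0%) of all autosomal genes tested. They were in 15 of the 37 promoters of axonemal genes that rose and in 3 of the 9 that did not pass. The 3 axonemal genes with the largest rise among those holding the letters are shown with them in capitals (GGCAAC is the same motif on the other strand), each on the strand of its gene.
Dnaic2, chr11:114727169-114727468, plus strand: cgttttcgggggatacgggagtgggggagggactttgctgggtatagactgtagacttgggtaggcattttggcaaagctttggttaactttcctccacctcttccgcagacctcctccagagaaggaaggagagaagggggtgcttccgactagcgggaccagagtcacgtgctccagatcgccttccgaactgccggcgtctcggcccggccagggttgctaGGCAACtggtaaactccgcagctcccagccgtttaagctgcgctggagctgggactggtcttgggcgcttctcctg
Cfap161, chr7:83794790-83795089, minus strand: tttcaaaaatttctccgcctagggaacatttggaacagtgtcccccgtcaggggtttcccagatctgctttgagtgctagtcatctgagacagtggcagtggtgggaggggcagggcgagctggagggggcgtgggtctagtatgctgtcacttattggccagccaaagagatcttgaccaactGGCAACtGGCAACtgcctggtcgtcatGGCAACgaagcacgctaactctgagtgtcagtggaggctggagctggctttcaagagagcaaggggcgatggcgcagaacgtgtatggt
Hydin, chr8:110266727-110267026, plus strand: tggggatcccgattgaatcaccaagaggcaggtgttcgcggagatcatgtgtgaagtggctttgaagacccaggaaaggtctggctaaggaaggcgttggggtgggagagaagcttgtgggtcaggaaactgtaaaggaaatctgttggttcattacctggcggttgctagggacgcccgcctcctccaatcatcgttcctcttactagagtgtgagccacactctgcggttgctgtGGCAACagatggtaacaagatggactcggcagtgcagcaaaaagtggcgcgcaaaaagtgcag
The Cfap161 window holds 3 matches and the others 1 each. A match describes the letters and is not evidence of binding.

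Genes of the structures that carry the axoneme moved less uniformly. The centrosome and centriole list had 25 rises (18 to 20 without 1 array) and 11 falls (9 to 11) among 57 tested genes, with a median of 0.68. Sass6, the core of the centriole cartwheel, had 10.55 and 10.56 on the mid-late arrays, against 7.67 and 7.76 on the pre-mid arrays. Cep164, of the centriole's distal appendages, rose by 3.68, and Cdk5rap2, which recruits gamma-tubulin, by 2.92. In contrast Tubgcp3, of the gamma-tubulin ring, had 2.55 and 2.62 on the mid-late arrays, against 6.39 and 6.72 on the pre-mid arrays, and Haus2, of the augmin complex, fell by 5.31. Genes that act on gamma-tubulin thus stood among both the rises and the falls.

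Among tubulins and tubulin modifiers 12 of 31 rose (10 to 12) and 8 fell (6 to 8). The enzymes that rose include Ttll1 (4.61 ± 0.49) and Ttll5 (3.02 ± 0.34), which add glutamate chains to tubulin, and Agtpbp1 (2.31 ± 0.27), which shortens them. Tubb5, a beta-tubulin of dividing cells, had 3.97 and 3.86 on the mid-late arrays, against 7.78 and 8.01 on the pre-mid arrays. Intraflagellar transport and BBSome genes rose in 8 of 32 cases (4 to 5 without 1 array) and fell in 3 (1 in each such fit). Ift140 had 14.06 and 14.24 on the mid-late arrays, against 11.58 and 11.53 on the pre-mid arrays, so that transport genes were already high at the earlier stage. Of 30 kinesins 7 rose (4 to 5) and 3 fell (1 to 2), among them Kif9, a flagellar kinesin, by 3.31 and Kif6 by 3.30, with Kif5b, a cargo motor, among the falls (-3.37).

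Ion channel genes rose more often than the autosomal background, and genes of the sperm surface stood near it. Of 34 tested ion channel genes 20 rose (58.8%, 17 to 19 without 1 array) and 6 fell (3 to 4), with a median of 1.67. Only 34 of the 139 ion channel genes on the array reached the filter, and a gene that reached it on the mid-late arrays alone had to be higher there, as held for 11 of the 20 rises. Kcnk2, a background potassium channel, had 8.49 and 9.33 on the mid-late arrays, against 2.87 and 2.79 on the pre-mid arrays, and Kcng4, a voltage-gated channel subunit, had 7.78 and 8.32, against 2.12 and 2.14 on the pre-mid arrays. Trpm7, a magnesium-permeable channel, fell by 4.33 and the polycystin gene Pkd1 by 2.60. In the ADAM protease and sperm surface list 12 of 34 genes rose (35.3%, 7 to 9 without 1 array) and 4 fell (3 to 5). Zpbp2 and Zpbp, acrosomal proteins that bind the egg coat, rose by 4.45 and 3.27, while Adam9, a widely expressed protease, fell by 4.82 and Tex101, a germ cell surface protein, by 3.75.

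Genes of the cyclic AMP pathway moved both ways. Of 42 genes of testis serine kinases and protein kinase A signalling 16 rose (15 to 16) and 9 fell (7 in each fit). Adcy10, the soluble adenylyl cyclase of sperm, had 10.31 and 10.33 on the mid-late arrays, against 6.72 and 6.03 on the pre-mid arrays. Adcy6, a membrane cyclase, had 8.92 and 9.12 on the mid-late arrays, against 2.18 and 2.20 on the pre-mid arrays. Both kinds of cyclase thus rose, as did the phosphodiesterase Pde10a (4.12) and the anchoring protein Akap6 (3.56). Of the 16 rises 8 reached the filter through the mid-late arrays alone and had to be higher there. Adcy6, Pde10a and Akap6 are among them. Protein phosphatase genes rose in 19 of 50 cases (13 to 17) and fell in 12 (8 to 9). Ppp3r2, the testis form of the calcineurin regulatory subunit, rose by 5.66 and Ppp1r27, a phosphatase 1 inhibitor subunit, by 6.08, while Ppp2r1a, a scaffold of phosphatase 2A, fell by 2.73, as did Ppp1cb, a catalytic subunit of phosphatase 1 (-2.88).

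Transcription factors with known roles in germ cells rose in 9 of 25 cases (6 without any 1 array) and fell in 5 (4 to 5), with a median of 0.73. Ovol2, a zinc finger factor of the Ovo family, had 9.95 and 10.41 on the mid-late arrays, against 2.53 and 2.63 on the pre-mid arrays, and 2.52 in the 15-day testes. Its relative Ovol1, needed for pachytene progression in the mouse, had 6.59 and 6.87 on the mid-late arrays, against 2.34 and 2.36 on the pre-mid arrays. Pou5f2, a POU domain factor of spermatocytes, rose by 6.38 and Dmrtb1, a doublesex-related factor, by 3.35. Both Ovo family genes were therefore above 4 only on the mid-late arrays among the sorts compared. They reached the filter through these arrays alone and had to be higher there. Of the 5 falls 3, Dmrta2 among them, reached it through the pre-mid arrays alone and had to be lower in mid-late cells. Rfx7 fell by 3.49, and Dmrta2 and Dmrta1 by 3.70 and 3.33.

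The large family of Zfp zinc finger genes, many of which encode repressors of transposons and other targets, held more rises than falls. Of 197 tested members 80 rose (40.6%, 66 to 69 without 1 array) and 35 fell (17.8%, 26 to 29), with a median of 0.46 beside -0.06 over all autosomal genes. Of 293 members on the array 197 reached the filter, 22 of them through the mid-late arrays alone, which had to be higher there (21 of the 80 rises), and 12 through the pre-mid arrays alone (8 of the 35 falls). Zfp78 had 7.63 and 7.89 on the mid-late arrays, against 2.79 and 2.78 on the pre-mid arrays, and Zfp423 rose by 4.64, Zfp952 by 4.16 and Zfp286 by 4.05. Among those that fell, Zfp280b had 1.99 and 1.68 on the mid-late arrays, against 10.00 and 9.90 on the pre-mid arrays, and Zfp740 fell by 6.82. The family thus held large changes in both directions, with rises the more numerous.

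Chromatin enzymes fell more often than they rose. Histone lysine methyltransferases rose in 7 of 34 cases (5 to 7) and fell in 19 (55.9%), a count of 10 to 12 without 1 array. Kmt5b, which methylates histone H4, had 6.04 and 5.56 on the mid-late arrays, against 8.98 and 9.07 on the pre-mid arrays, and Nsd1, a histone H3 methyltransferase, fell by 3.20. Prdm8 went against this direction, with 9.83 and 9.58 on the mid-late arrays, against 2.67 and 2.69 on the pre-mid arrays. Setd1b rose by 3.85 and Dot1l, which methylates histone H3 in transcribed genes, by 2.00. Histone demethylases rose in 2 of 19 cases and fell in 10 (8 to 10). Kdm3b fell by 6.04, Kdm4c by 2.38, Riox2 by 3.99 and Jarid2, a catalytically inactive relative that recruits Polycomb, by 4.81. The list members that rose were Kdm4d and Jmjd8. Kdm4d, a testis-enriched demethylase, had 12.70 and 12.82 on the mid-late arrays, against 9.23 and 9.04 on the pre-mid arrays. Jmjd8, which is on the list by its symbol alone, rose by 3.42.

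Core and linker histones rose in 3 of 16 cases and fell in 6 (4 in each fit that left out 1 array). The linker histone H1f2 fell by 4.55 and the variant H2az2 by 3.94. H2bc21, whose transcripts can be polyadenylated, had 12.59 and 12.79 on the mid-late arrays, against 6.74 and 6.92 on the pre-mid arrays. Histone genes are near-identical copies and array probes may not tell all of them apart. Among chromatin remodelling genes 9 of 43 rose (7 to 9) and 14 fell (9 to 10), with the ATPase Smarca2 up by 4.39 and Smarcad1 lower (-5.97). Histone acetylation genes, with 9 rises and 11 falls of 41, stood near the background.

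Subunits of the RNA polymerases mostly fell. Of 24 tested, 13 fell (54.2%, 10 to 12 without 1 array) and 4 rose (3 to 4), with a median of -1.23. Polr2b, the second largest subunit of RNA polymerase II, had 12.19 and 12.45 on the mid-late arrays, against 14.70 and 15.04 on the pre-mid arrays. Polr3g, a subunit of polymerase III, fell by 5.61, and so did Polr1b, of polymerase I (-4.06), while Polr1a, the largest subunit of polymerase I, rose by 2.55. Lower values were thus found for subunits of all 3 polymerases. General transcription factors rose in 11 of 44 cases (8 to 10) and fell in 15 (8 to 11). Taf4b, a germ cell TFIID subunit, had 5.11 and 5.55 on the mid-late arrays, against 11.45 on each pre-mid array, and Gtf2a1l, the germ cell form of a TFIIA subunit, had 14.32 and 14.34, against 11.10 and 11.08 on the pre-mid arrays.

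Splicing factors fell in most cases and almost never rose. Of 66 tested genes 36 fell (54.5%, 24 to 33 without 1 array) and 1 rose, with a median of -1.05, and 13 of the falls were by at least 2. Hnrnpul2, a nuclear RNA-binding protein, had 7.23 and 7.58 on the mid-late arrays, against 10.40 and 10.88 on the pre-mid arrays (-3.23 ± 0.28, adjusted p = 2.0e-05). Srsf6, a serine and arginine rich splicing activator, had 9.08 and 8.93 on the mid-late arrays, against 11.52 and 11.61 on the pre-mid arrays. Snrpf, a core protein of spliceosomal particles, fell by 2.93 and Hnrnpdl by 2.38. Most of these genes stayed well above the filter, with a median level of 10.4 in mid-late cells and 11.5 in pre-mid cells. Sf3b2 was the gene that rose, by 0.87 ± 0.29, and it lost its call in some fits with 1 array left out.

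The Srsf6 promoter is shown as that of the splicing factor with the largest fall among those holding the letters GGGCGG, the GC box, which are in capitals (CCGCCC on the other strand), and it can be set against the axonemal windows.
Srsf6, chr2:162931258-162931557, plus strand: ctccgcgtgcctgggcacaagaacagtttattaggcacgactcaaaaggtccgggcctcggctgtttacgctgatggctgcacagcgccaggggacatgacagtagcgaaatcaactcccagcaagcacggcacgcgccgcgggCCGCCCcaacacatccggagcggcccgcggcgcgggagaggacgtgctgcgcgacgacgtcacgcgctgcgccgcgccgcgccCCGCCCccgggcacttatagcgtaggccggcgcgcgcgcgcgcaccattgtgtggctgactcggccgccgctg
It holds 45 CpG pairs, against 17 in Dnaic2, 10 in Cfap161 and 12 in Hydin, and is far from its own list, whose median over 59 splicing factor promoters was 25 (upper quartile 32), against 12.5 over the 46 axonemal promoters.

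RNA decay and storage showed both directions. Among 59 genes of deadenylation and decay 14 rose (7 to 10 without 1 array) and 21 fell (17 to 18). Lsm14a, a processing body protein, had 5.73 and 5.59 on the mid-late arrays, against 11.24 and 11.31 on the pre-mid arrays. Patl1, a decapping activator, fell by 6.40 and Cnot6l, a deadenylase, by 3.86, while Smg5, of nonsense-mediated decay, rose by 2.70. Among 43 translational control genes 8 rose (7 in each fit) and 14 fell (11 to 12). Cpeb1, which regulates polyadenylation in the cytoplasm, had 2.38 and 2.68 on the mid-late arrays, against 9.48 and 9.14 on the pre-mid arrays. Dazl, a germ cell RNA-binding protein, had 8.87 and 8.62 on the mid-late arrays, against 14.20 and 14.36 on the pre-mid arrays. Paip2b, an inhibitor of poly(A)-binding protein, fell by 5.88. Ybx3, a protein that stores mRNA in spermatids, was abundant at both stages and rose by 2.25, and Larp6 rose by 5.33.

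In the piRNA pathway, which silences transposons in germ cells, 8 of 25 genes rose (5 to 7) and 6 fell (6 in each fit), close to the background. Henmt1, the methyltransferase of piRNA ends, had 8.97 and 9.50 on the mid-late arrays, against 3.26 and 4.38 on the pre-mid arrays, and Tdrd1 rose by 4.35. Mov10l1, the helicase that starts piRNA processing, had 9.72 and 10.00 on the mid-late arrays, against 13.41 and 13.45 on the pre-mid arrays, and Tex19.1 fell by 4.64. Nuclear export and pore genes rose in 12 of 50 cases (6 to 9) and fell in 17 (12 to 13). The importin Kpna7 had 7.41 and 7.42 on the mid-late arrays, against 2.56 and 2.37 on the pre-mid arrays, and the nucleoporin Seh1l fell by 4.88.

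Components of protein synthesis rose less often than the autosomal background. Of 21 tested cytosolic ribosomal protein genes 10 fell (47.6%, 6 to 7 without 1 array) and 0 rose, with a median of -1.31. Rpl15 had 4.96 and 3.84 on the mid-late arrays, against 10.69 and 10.81 on the pre-mid arrays, Rpl22 fell by 4.78 and Rps3 by 3.61. The autosomal copy Rpl39l, which is transcribed in germ cells, had 14.21 and 14.29 on the mid-late arrays, against 14.09 and 14.12 on the pre-mid arrays, with a difference of 0.14 ± 0.22 that did not pass. Ribosomal protein genes have many processed copies, and probes can be shared between them. Mitochondrial ribosomal proteins rose in 6 of 70 cases (2 to 3) and fell in 21 (14 to 15), with a median of -0.17, and initiation factors rose in 4 of 42 (2 to 3) and fell in 12 (7 to 10). Of 32 tRNA synthetase genes 5 rose (15.6%) and 9 fell (28.1%), with Aars2, the mitochondrial alanine enzyme, rising by 3.54.

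The endoplasmic reticulum folding and glycosylation list fell in 28 of 50 cases (56.0%, 24 to 26 without 1 array) and rose in 4 (2 to 4), with a median of -1.30. Ssr3, a translocon-associated subunit, had 7.39 and 7.17 on the mid-late arrays, against 12.85 and 12.86 on the pre-mid arrays. Pdia5, a disulfide isomerase, had 2.18 and 2.58 on the mid-late arrays, against 9.11 and 9.45 on the pre-mid arrays. Sec62, of the translocation channel, fell by 2.90 and Alg1, a mannosyltransferase, by 3.56. Those that rose include Clgn, the testis chaperone calmegin, with 13.42 and 13.90 on the mid-late arrays, against 11.99 and 12.16 on the pre-mid arrays, and Sel1l2 (4.08). Vesicle coat and trafficking genes rose in 20 of 94 cases (14 to 17) and fell in 36 (26 to 30), with the fusion proteins Stx7 falling by 5.65 and Vamp8 by 4.48. Of 15 vacuolar proton pump genes 4 rose and 3 fell. Atp6v1g2 rose by 4.66 and Atp6v1c1 by 1.77, while Atp6v0b had 5.31 and 6.63 on the mid-late arrays, against 13.40 and 13.46 on the pre-mid arrays.

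Protein degradation shifted downward in its general enzymes. Of 41 proteasome genes 16 fell (39.0%), 9 to 11 of them in fits without 1 array, and 3 rose (2 in each such fit). Psma1, a subunit of the core, had 10.62 and 10.80 on the mid-late arrays, against 13.17 and 13.20 on the pre-mid arrays. Psme4, the activator known for histone removal in spermatids, rose by 1.41 ± 0.24, and the interferon-inducible activator subunit Psme1 fell by 4.60. Of 28 ubiquitin conjugating enzymes 12 fell (42.9%, 11 to 12) and 2 rose. Uba6, an activating enzyme, had 3.22 and 3.32 on the mid-late arrays, against 10.36 and 9.98 on the pre-mid arrays, and Ube2g1 fell by 5.32. The 2 that rose were Ube2u (3.53) and Ube2d2b (4.34), a germ cell copy of a widely used enzyme.

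Among ring and F-box ubiquitin ligases 42 of 160 rose (34 to 37) and 61 fell (47 to 51). Rnf144b had 7.68 and 7.83 on the mid-late arrays, against 1.97 and 1.99 on the pre-mid arrays, and Rnf5, an endoplasmic reticulum ligase, fell by 6.00. Heat shock and DnaJ genes rose in 18 of 64 cases (11 to 15) and fell in 20 (11 to 14), near the background. Hspa8, the constitutive chaperone, had 12.83 and 13.16 on the mid-late arrays, against 15.47 and 15.81 on the pre-mid arrays, and the inducible genes Hspa1b and Hspa1a, near-identical copies, fell by 5.37 and 3.97. The co-chaperone Bag3 had 11.21 and 11.62 on the mid-late arrays, against 6.48 and 6.04 on the pre-mid arrays. Autophagy genes rose in 9 of 28 cases (6 to 7) and fell in 7, with the protease Atg4c rising by 4.10 and Atg16l1, needed to build autophagosomes, falling by 7.21.

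Cell cycle genes did not move as a group. Of 31 cyclins and division kinases 5 rose (3 in each fit without 1 array) and 8 fell (6 to 7). Ccna1, the cyclin needed to leave pachytene, had 12.68 and 12.74 on the mid-late arrays, against 7.04 and 6.71 on the pre-mid arrays, whereas Ccna2, the somatic form, had 3.62 and 3.65, against 9.50 and 9.90 on the pre-mid arrays. The A-type cyclins thus changed places between the stages. Aurkb, a kinase of chromosome segregation, rose by 3.72 and Aurka, a spindle kinase, by 1.40, while Arpp19, an inhibitor of phosphatase 2A, fell by 4.39, as did Cks1b (-3.89). Of 46 kinetochore and checkpoint genes 7 rose (15.2%), among them Cenpu (2.50) and Cenpv (1.94). In this list 16 fell (34.8%), among them Zwint (-3.76) and Mad2l1 (-2.75). Of 22 cohesin and condensin genes 2 rose (9.09%), Nipbl by 1.47 and Smc6 by 0.99, and 8 fell (36.4%). The falls include the acetyltransferase Esco2 (-5.63) and the core subunit Smc3, with 6.37 and 5.25 on the mid-late arrays, against 10.36 and 10.55 on the pre-mid arrays. Both shares of falls are near the background.

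DNA replication genes fell in 19 of 45 cases (42.2%, 16 without any 1 array) and rose in 5 (3 to 4). Of the 19 falls 6, Mcm8 among them, reached the filter through the pre-mid arrays alone and had to be lower in mid-late cells. The falls include Mcm3 (-5.85) and Mcm5 (-5.19), subunits of the replicative helicase, the flap nuclease Fen1 (-4.95) and Mcm8 (-7.18), a helicase of meiotic repair. Rpa1, the single-strand binding protein, was among those that rose, with 13.57 and 13.59 on the mid-late arrays, against 11.21 and 11.43 on the pre-mid arrays. The mean levels of spermatogonial and of leptotene and zygotene markers were also lower on the mid-late arrays, as given above. A link between these markers and the replication genes was not tested.

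DNA repair and damage signalling genes rose in 15 of 60 cases (8 to 11 without 1 array) and fell in 22 (15 to 19), shares of 25% and 36.7% that are near the background. Brca1 and Palb2, of the homology search complex, fell by 3.42 and 5.03, and the mismatch repair gene Pms2 by 6.09. Slx4, the scaffold of structure-specific nucleases, had 10.75 and 10.53 on the mid-late arrays, against 6.76 and 6.66 on the pre-mid arrays. Its partners Mus81 and Ercc4, nuclease subunits that cut branched DNA, rose by 3.78 ± 0.29 and 3.04 ± 0.22. All 3 genes were above their pre-mid values on both mid-late arrays.

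In energy metabolism, 8 of 24 glycolysis and pyruvate genes rose (33.3%, 7 to 8) and 5 fell, near the background. Pfkp, the platelet-type phosphofructokinase, had 10.13 and 10.76 on the mid-late arrays, against 6.11 and 5.85 on the pre-mid arrays, and Eno4, a sperm enolase, rose by 3.58. Ldhb, a lactate dehydrogenase subunit, had 4.09 and 5.04 on the mid-late arrays, against 10.21 and 10.63 on the pre-mid arrays, and Pkm, a pyruvate kinase, fell by 4.35. Pdk2, a kinase that inhibits pyruvate dehydrogenase, rose by 4.13 and its relative Pdk1 fell by 5.68. In the citric acid cycle 6 of 16 genes fell (5 in each fit) and 2 rose (0 in each fit), with fumarase (Fh1) lower by 4.51, malate dehydrogenase (Mdh2) by 3.80 and citrate synthase (Cs) by 2.63. Respiratory chain genes rose in 4 of 84 cases (2 to 3) and fell in 20 (13 to 17), with a median of -0.24 and a level near 11.6 in mid-late cells and 11.9 in pre-mid cells.

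Lipid enzyme genes moved both ways. Of 31 fatty acid oxidation genes 9 rose and 11 fell (10 in each fit without 1 array). These shares, 29.0% and 35.5%, are near the background, and 1 of the rises and 5 of the falls reached the filter through 1 stage alone. Cpt1b, the muscle form of the carnitine transferase that admits fatty acids to mitochondria, had 9.27 and 9.31 on the mid-late arrays, against 3.59 and 2.91 on the pre-mid arrays. Acyl-CoA dehydrogenases of the same list moved both ways. Acadm had 2.74 and 2.12 on the mid-late arrays, against 8.53 and 8.54 on the pre-mid arrays, and Acadl fell by 5.26, while Acad10 had 8.08 and 8.15 on the mid-late arrays, against 3.65 and 4.36 on the pre-mid arrays. Of 16 cholesterol synthesis genes 8 fell (5 to 7) and 2 rose (1 to 2), with the sterol sensor Scap lower by 5.50, the regulator Srebf1 by 5.46 and the demethylating enzyme Msmo1 by 4.46. Fdft1, squalene synthase, rose, with 13.02 and 13.18 on the mid-late arrays, against 10.71 and 10.33 on the pre-mid arrays. Of 34 genes of sphingolipid, ether lipid and long-chain lipid synthesis 15 fell (44.1%) and 8 rose (23.5%). Of the falls 6 reached the filter through the pre-mid arrays alone and had to be lower in mid-late cells. Among these 6 are the elongase Elovl5, lower by 6.33, and the sphingomyelinase Smpd1, lower by 5.36.

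Antioxidant and thiol enzymes fell in 25 of 53 cases (47.2%, 16 to 19 without 1 array) and rose in 10 (7 to 9), with a median of -1.01. Of the falls, 9 reached the filter through the pre-mid arrays alone and had to be lower in mid-late cells. Of the rises, 1 reached it through the mid-late arrays alone. Nfe2l2, the main activator of antioxidant genes, had 2.46 and 2.56 on the mid-late arrays, against 8.77 and 8.69 on the pre-mid arrays. Keap1, its inhibitor, had 5.05 and 5.58 on the mid-late arrays, against 2.67 and 2.68 on the pre-mid arrays. Prdx1, an abundant peroxiredoxin, fell by 3.97, with 10.70 and 10.53 on the mid-late arrays, against 14.55 and 14.61 on the pre-mid arrays, and Prdx3, of mitochondria, fell by 5.22. The activator and its inhibitor thus moved in opposite directions, and Gstt3, a glutathione transferase, rose by 5.22. All of Nfe2l2, Prdx1 and Prdx3 were above 11 in the 15-day testes, where Sertoli cell markers are also high.

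Solute carriers rose in 44 of 116 tested cases (37.9%, 38 to 41) and fell in 37 (29 to 32), with 291 members on the array. Of the rises 18 reached the filter through the mid-late arrays alone, and of the falls 11 through the pre-mid arrays alone, which fixed their direction. Slc34a2, a phosphate transporter, had 10.38 and 10.07 on the mid-late arrays, against 3.14 and 3.15 on the pre-mid arrays, and Slc25a10, the mitochondrial dicarboxylate carrier, rose by 5.10. The zinc transporter Slc30a4 fell by 6.72, as did the anion exchanger Slc4a2 (-5.84). Of 113 matrix and integrin genes on the array 30 were tested, and 10 of them rose (33.3%) and 5 fell (16.7%). Of the rises 5 reached the filter through the mid-late arrays alone, and of the falls 2, Fn1 and Itgb1, through the pre-mid arrays alone. Their direction was thus fixed. The collagen gene Col6a4, which was above 4 at both stages, rose by 4.75. The falls include fibronectin (Fn1), with 3.02 on each mid-late array, against 10.55 and 10.66 on the pre-mid arrays, and Itgb1, with 2.48 and 2.39, against 8.29 and 8.55 on the pre-mid arrays. Of 24 apoptosis and p53 target genes 10 fell (6 to 8) and 4 rose, among the falls Casp2 (-4.35), Ccng1 (-3.88) and Apaf1 (-2.33).

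Related genes that serve the same step were set side by side in 19 pairs, chosen after the values were seen, so that their counts support nothing beyond these values. Besides the cyclins and the pyruvate dehydrogenase kinases, Papolb, the testis poly(A) polymerase, had 12.41 and 12.48 on the mid-late arrays, against 9.55 and 8.86 on the pre-mid arrays, while Papola, the general enzyme, had 8.91 and 8.84, against 10.70 and 10.68 on the pre-mid arrays. Prkaca, a catalytic subunit of protein kinase A, rose by 2.31 ± 0.50 and Prkacb, another, fell by 3.75 ± 0.31. Ehmt2 and Ehmt1, which form a methyltransferase of histone H3 together, differed by 1.70 ± 0.29 and -5.81 ± 0.64. Ndufa4l2 rose by 5.10 and Ndufa4 fell by 4.97, and Pfkp rose by 4.46 where Pfkl fell by 2.96. Clgn rose by 1.58 and its somatic counterpart Canx fell by 1.12. In other pairs one member did not pass: Cpt1a had a difference of -0.07 ± 0.35 beside the rise of Cpt1b, and Boll a difference of 0.20 ± 0.21 beside the fall of Dazl. Slc25a31, the germ cell ADP/ATP carrier, fell by 1.16 and remained at 12.86 and 12.96 on the mid-late arrays, where Slc25a4, the somatic carrier, had 3.84 and 5.21.

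**Figure D4:**
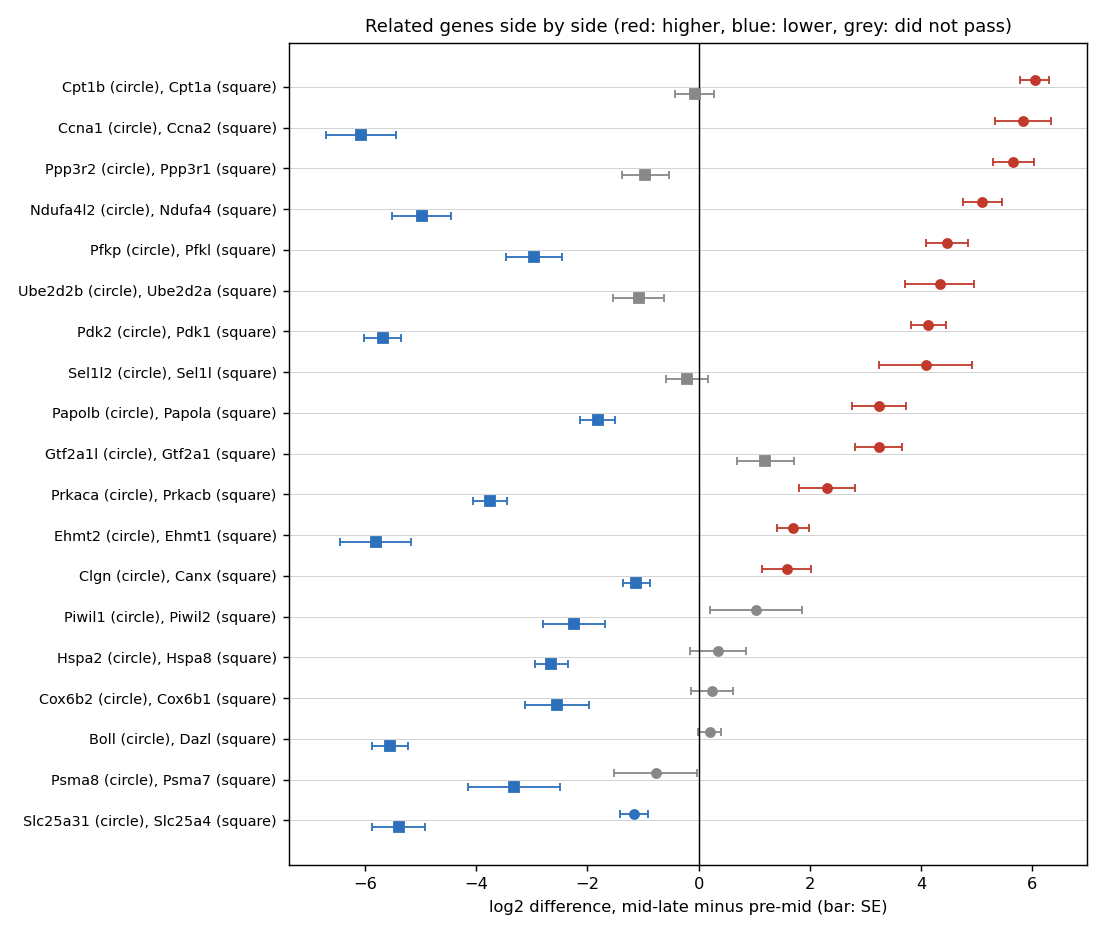
log2 difference, mid-late minus pre-mid, of the genes of 19 related pairs (circle and square; bars are SE; red rose, blue fell, grey did not pass). In the pairs Ccna1 with Ccna2, Ndufa4l2 with Ndufa4, Pfkp with Pfkl, Pdk2 with Pdk1, Papolb with Papola, Prkaca with Prkacb, Ehmt2 with Ehmt1 and Clgn with Canx, the circle rose and the square fell.

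Promoter composition differed between genes that rose and fell. CpG islands and GC boxes are known features of promoters active in many tissues. The GC box letters GGGCGG were in 44.3% of 361 autosomal promoters whose gene rose by 4 or more on the log2 scale, in 55.7% of 822 whose gene rose by 2 to 4, and in 63.9% of 902 with smaller rises. They were in 64.1% of 3105 promoters of genes that did not pass, and in 67.3% of 823, 70.8% of 965 and 73.1% of 457 promoters of genes that fell by under 2, by 2 to 4 and by 4 or more. The share over all tested autosomal promoters was 64.0%, and the share over all 27025 genes with a RefSeq window was 35.9%. The median number of CpG pairs per window was 12 for genes that rose by 4 or more, against 22 for genes that fell by 4 or more and 21 over all tested genes.

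**Figure D5:**
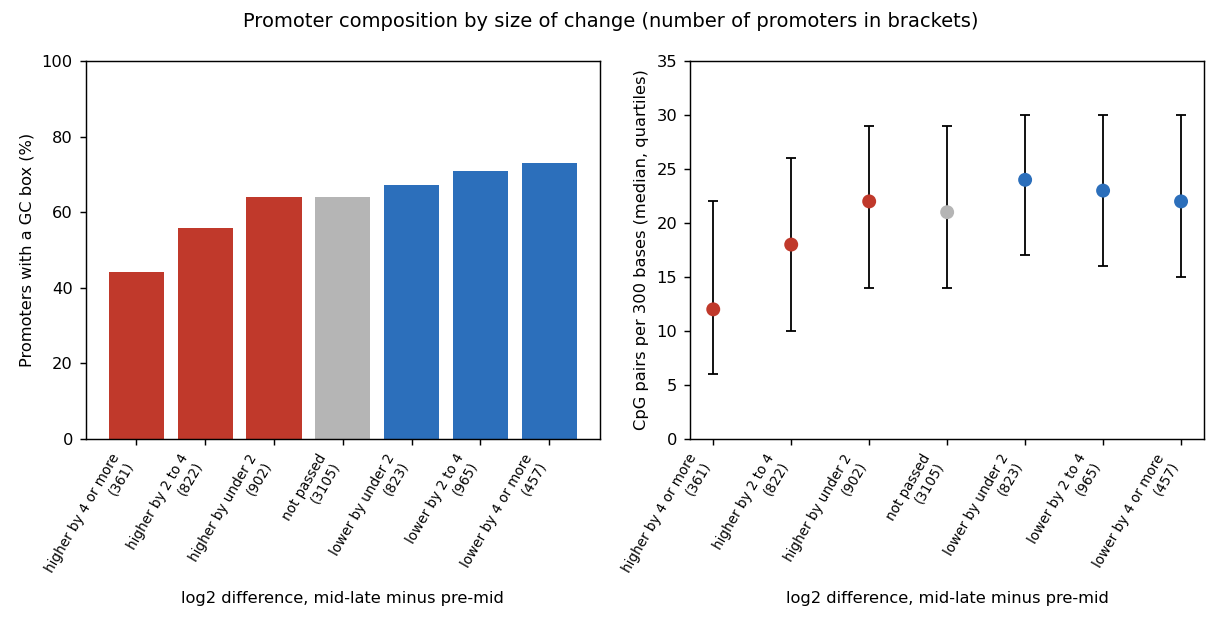
Share of promoters holding GGGCGG on either strand (left) and number of CpG pairs per 300-base window with quartiles (right), for autosomal genes in classes of log2 difference, mid-late minus pre-mid, with the number of promoters in brackets. The share runs from 44.3% in the class with the largest rises to 73.1% in the class with the largest falls.

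Of the other motifs, AACNGNC and TGACG also varied with the size of the change. The letters AACNGNC, which MYB family factors are known to bind, were in 37.1% of promoters of genes that rose (42.7% where the rise was 4 or more), 32.1% of those that fell (28.0% where the fall was 4 or more) and 34.5% of all tested, with 56.5% of the axonemal and 52.5% of the splicing factor promoters. TGACG, the shorter cyclic AMP response element, was in 28.3% of promoters of genes that rose, 36.1% of those that fell and 33.1% of all. By size it ran from 19.7% for rises of 4 or more to 41.4% for falls under 2, and was 30.4% for falls of 4 or more. The full element TGACGTCA, which contains the shorter one, was in 3.12% of promoters of genes that rose, 3.96% of those that fell and 3.69% of all, and in 1.39% (5 of 361) for rises of 4 or more. The E-box types CACGTG and CACGCG were in 9.64% and 19.5% of promoters of genes that rose, 12.2% and 18.8% of those that fell, and 10.7% and 18.9% of all. TATAAA was in 7.24% of promoters of genes that rose, 6.86% of those that fell and 6.83% of all. All motifs were searched on both strands.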

How the data were processed

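RNA of sorted spermatocytes and of whole testes was measured on Affymetrix arrays, 18 in all, with 1 probe set per gene. The values deposited by the authors are log2 signals from GCRMA, per the submitters' processing notes. GCRMA removes background, brings arrays to a common distribution and joins the probes of a gene. The arrays normalized together, the GCRMA version and the genome build are not given in the sources used here. Of 16539 probe sets, 15780 carry 1 gene symbol in the platform annotation, 0 carry several and 759 carry none, and these were left out. Gene positions and promoters came from RefSeq tables (GRCm38.p6). 15752 named genes were placed on a chromosome.

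Groups were taken from the sample titles. Genes at a log2 value of 4 or more on at least 2 of the 4 C57BL/10J arrays were tested with limma 3.58.1 in R 4.3.3 (lmFit with 1 mean per group over the 10 sorted arrays, then eBayes), two-sided, with Benjamini-Hochberg adjustment over 9308 genes, and called at an adjusted p under 0.05. The fit was tested on simulated data. Counts, medians and figures were made with Python 3 and pandas. For a list, members were found by symbol pattern, and 13 matches that are not members were removed. No set test was run.

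The text names genes by a rule: the 15 largest rises and falls of called autosomal genes whose groups do not overlap, 5 X-linked falls and the X-linked rises, up to 4 members of each list with the smallest p in each direction, any called member of a list with 12 or fewer tested, and the 10 largest switched genes each way, in each case fewer where the text needs fewer. Related pairs and genes so marked were chosen after their values were seen. The comparison, the lists and the rule were chosen with earlier results of these data known. Alternatives were other filters, other arrays in the fit, quantile normalization, centring, an intensity trend, a replicate block, a minimum size of change and leaving out each array.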

Additional observations from a re-analysis of the deposited data

How the results depend on the processing

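Counts of called genes stayed within 1.5 times the reported 2563 rises and 2947 falls (autosomes: 2553 and 2718) in every alternative except 1. With no filter on low values, 5940 genes were higher (5812 on autosomes), because all 15780 named genes were tested and those without measurable signal sit higher on the mid-late arrays, as given in the report. The fit of the 4 C57BL/10J arrays alone called 3263 rises and 3747 falls. Leaving out 1 C57BL/10J array, which leaves a lone array assumed to vary like the others, gave 2040 to 2136 rises and 2313 to 2426 falls. Quantile normalization gave 2908 rises and 2729 falls and raised the autosomal median to 0.15, against -0.06 as deposited, so the share of autosomal calls that were rises was 53.5%, against 48.4%; centring on the autosomal median gave 51.8%. The list medians of general transcription factors (-0.13) and of deadenylation and decay (-0.09) changed sign with centring, and that of fatty acid oxidation (-0.034) with both scalings. With the replicate number as a block the 10-array fit called 2473 rises and 2827 falls, and the 4-array fit 3278 and 3814. The labels do not say that a number marks a pairing, and the replicate differences correlated at 0.18 across genes between the stages, so the block result is given here only.

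Of 463 named genes that were called, 424 kept their call without any 1 of the 4 arrays. Direction was checked for genes named by the rule. Other pair members and other genes chosen after their values were seen were not checked. Centring raised the autosomal median from -0.06 to 0.08, so an unchecked difference as small as that of Cpt1a (-0.07) can change sign. Among the checked genes, direction reversed only for genes that did not pass and that the report does not discuss. They were Star (0.31 with quantile normalization, 0.051 with centring and -0.23 to 0.063 without 1 array), Kdm3a (-0.026 with quantile normalization and -0.00011 to 0.11 without 1 array), Insig2 (-0.00060 with quantile normalization), Hsd3b1 (-2.12 to 0.58 without 1 array), Atp6v1e2 (-1.72 to 0.012) and Myh11 (-0.51 to 1.08). The cause was not tested. With 2 arrays a stage the precision is limited, and values near the filter carry little signal over background.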
